A study of Mus musculus with 6 samples.

Results

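The antiviral effector genes examined here are 40 mouse interferon-stimulated genes, among them genes whose products act on viral RNA, proteins, nucleotides or membranes. Their chromatin accessibility was taken from ATAC-seq. A transposase cuts accessible DNA and attaches adapters there, so that the tags counted in a peak measure how open that stretch was. A peak belonged to a gene when the authors' annotation named that gene for it and its center lay at most 100000 bp from the gene's transcription start site. This rule gave 289 of the 175929 peaks of the series. Of these, 125 lay within 3000 bp of the start site (promoter-proximal) and 164 lay farther away (distal). The limit fell between a Bst2 peak at 2996 bp, with a log2 change of -0.12, and an Oasl1 peak at 3094 bp, with a log2 change of 0.03. A peak was found for 37 of the 40 genes and a promoter-proximal peak for 33. By this rule Ifit1, Ifit3, Mx1 and Rsad2 had distal peaks only, and Ifit3b, Ifi44 and Epsti1 had none.

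All libraries came from leukemia cells that carried AE9a, a truncated AML1/ETO fusion protein, 1 floxed allele of Usp18 (Usp18+/f) and UBCER-Cre, a Cre recombinase driven by a ubiquitous promoter and switched on by tamoxifen. The cells grew in recipient mice, which were injected with oil or tamoxifen once they were sick. At 3 days from the first injection, splenic Lin- c-Kit+ GFP-marked cells were isolated by sorting. The oil group kept the floxed allele (replicates 1, 2 and 4) and the tamoxifen group had lost it (Usp18+/D, replicates 1, 3 and 4). As only the tamoxifen group received the drug, effects of tamoxifen itself and of the lost allele cannot be told apart. Each n counts libraries. The labels do not say that each came from a separate mouse. The study's methods give 3 mice per group for the sorted cells, with 1 set used for the ATAC-seq, but elsewhere state biological duplicates for ATAC-seq. The p-values therefore measure the spread between libraries, which may be technical.

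Interferons bind a receptor at the cell surface and switch on a transcription factor complex that binds the interferon-stimulated response element (ISRE) near its target genes. Usp18 encodes a protease that removes ISG15 from proteins and also restrains signaling at the interferon receptor. The genes described here are targets of this route, and some of their products cut, trap, mark or block viral components.

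The ISRE core was searched as GAAANNGAAA on both strands. The stretch upstream of Ddx60 is shown because its peak was 1 of 2 that passed the test. Those of the paralogs Oas1g and Oas1a are shown for their promoter log2 changes of -0.41 and -0.05. Whether these 2 changes differ was not tested. The run upstream of Mx2 covers bases -134 to -45 and leaves out annotated untranslated sequence. Each is read from the GRCm38 genome, the same assembly as mm10, in the direction of its gene, and capitals mark the ISRE core.
Ddx60, chr8:61927937-61928086, plus strand: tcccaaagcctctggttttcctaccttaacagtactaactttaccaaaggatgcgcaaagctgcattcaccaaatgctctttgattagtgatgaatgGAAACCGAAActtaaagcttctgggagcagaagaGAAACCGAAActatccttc
Mx2, chr16:97535947-97536036, plus strand: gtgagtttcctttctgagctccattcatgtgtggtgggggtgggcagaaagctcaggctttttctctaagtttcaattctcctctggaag
Oas1g, chr5:120887614-120887763, minus strand: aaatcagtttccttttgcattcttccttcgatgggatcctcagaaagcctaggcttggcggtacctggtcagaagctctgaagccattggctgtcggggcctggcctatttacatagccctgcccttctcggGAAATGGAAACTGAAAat
Oas1a, chr5:120907526-120907675, minus strand: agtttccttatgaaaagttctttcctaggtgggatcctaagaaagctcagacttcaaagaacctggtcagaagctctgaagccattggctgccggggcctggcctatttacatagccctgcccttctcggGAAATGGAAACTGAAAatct

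Ddx60 carried 2 separate cores, 48 and 14 bp upstream of the start site, with the same letters in both. Oas1g and Oas1a each carried 2 overlapping cores, seen as 1 run of capitals. Lined up at their last core, the Oas1a and Oas1g stretches were identical at 120 of 148 bases (81.1%). The Mx2 run held no core, and the core nearest to Mx2 in its peaks lay 932 bp upstream of the start site. That core is shown with its flanks, beside the core of Rtp4 that lies closest to its start site, since Rtp4 held 4 cores in its promoter peak, the highest number among these genes.
Mx2, core at chr16:97535144-97535153, plus strand: ccagagaaatGAAAGTGAAActaagtagga
Rtp4, core at chr16:23609894-23609903, plus strand: aaagaaccggGAAACTGAAActgttctttg

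In windows of 300 bp on the peak centers, an ISRE core was found in 21 of 125 promoter-proximal peaks of these genes (16.8%), against 3.12% of all promoter-proximal peaks. In the distal peaks the core was found in 8 of 164 (4.88%), against 3.48% of all distal peaks. Of the 40 genes, 32 had a window in the RefSeq promoter set used here (GRCm38.p6, from 250 bp before to 50 bp after the start). Of these 32, 15 held a core (46.9%), against 3.99% of all promoters in the set. Genes without a window in the set were not counted there, among them Rtp4 and Ifi27, whose promoter peaks held cores. A match describes letters, not a bound factor. The GAS element (TTCNNNGAA) was found in 11.2% of the promoter-proximal peaks against 6.87% of all, and in 9.76% of the distal peaks against 8.08%. The RUNX site (TGTGGT, both strands) was found in 19.2% against 18.9% and in 26.2% against 27.9%. The AP-1 site (TGANTCA) was found in 15.2% of the distal peaks against 10.2% of all distal peaks, and in 6.4% of the promoter-proximal peaks against 7.06%. The NF-kB site was found in 8.8% and 6.1% of promoter-proximal and distal peaks, against 9.48% and 6.41% of all. In the 32 RefSeq promoters, the AP-1 site was found in 8 (25%, against 8.97% of all promoters), the GAS element in 7 (21.9%, against 9.55%), the NF-kB site in 6 (18.8%, against 9.55%) and the RUNX site in 5 (15.6%, against 18.9%). Of these 5 motifs, the ISRE core stood farthest above the share of all in the promoter-proximal peaks and in the RefSeq promoters, and the AP-1 site in the distal peaks. The bar chart of ISRE shares gives the 3 comparisons side by side.

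**Figure D1:**
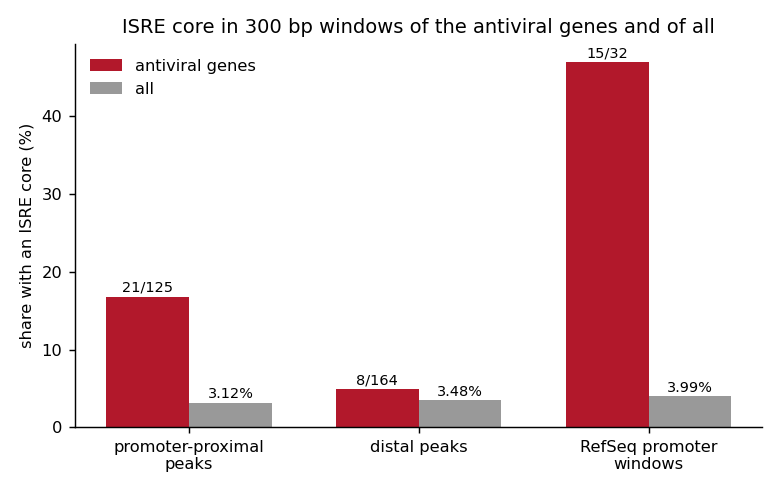
Share of 300 bp windows with an ISRE core (percent, y axis) for the antiviral genes (red, with counts) and for all peaks or promoters (gray). The red bar stands at 16.8% against 3.12% in promoter-proximal peaks, at 4.88% against 3.48% in distal peaks, and at 46.9% against 3.99% in RefSeq promoters.

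Some facts of the whole series bear on these values. Total tags ran from 57.4 to 74.7 M per library (1 M is 1000000 tags), 28.2% to 30.5% of them in peaks, and the median peak held 45 to 57 tags. Tamoxifen replicate 4 stood apart, with a correlation across peaks of 0.958 with the other tamoxifen libraries and 0.968 to 0.971 with the oil libraries, whereas tamoxifen replicates 1 and 3 correlated at 0.974. The Usp18 promoter peak held 452, 411 and 445.5 normalized tags after oil and 444, 468 and 448 after tamoxifen. Which exons are floxed is not given in the sources used here, so that peak does not check the labels. All 6 markers of the labeled blasts (Kit, Myb, Cd34, Mpo, Runx1, Spi1) had a promoter-proximal peak, with summed tags of 2108 to 2148 after oil and 2227 to 2480 after tamoxifen, and only Cd34 passed the test, higher after tamoxifen. Summed T-cell markers ran from 64.2 to 89.8 after oil and from 81.7 to 107 after tamoxifen, with no promoter-proximal peak at Cd3d, Cd4 and Cd8a (3 of 6 with a peak). B-cell markers ran from 133 to 160 and from 151 to 192, with no such peak at Cd79b, Ms4a1 and Pax5. Mature myeloid markers ran from 47.3 to 50.4 and from 51.9 to 70.6, with no such peak at Csf1r, Ly6g, Lyz2 and S100a8. Erythroid markers (6 of 6 with a peak) ran from 1362 to 1508 and from 1232 to 1400, and plasmacytoid dendritic markers (2 of 4, among them Bst2) from 1037 to 1120 and from 1080 to 1152. Their part in the results was not tested. In bulk cells, more cells with an open site and a wider opening in each cell cannot be told apart.

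To determine whether loss of 1 Usp18 allele was accompanied by a change in accessibility at antiviral genes, tags were compared between 3 tamoxifen and 3 oil libraries. Only the Ddx60 and Mx2 promoter peaks rose, and no peak of the 40 genes fell at an adjusted p under 0.05 (DESeq2). These were 2 of 125 promoter-proximal peaks (1.6%), against 1.34% of all promoter-proximal peaks, so that the share was near the background. Of the 164 distal peaks, 0 passed, against 1.41% of all distal peaks. With a fold change over 2 required as well, 0 of 125 and 0 of 164 were left, against 0.385% and 0.851% of all peaks. At an unadjusted p under 0.05, 4 promoter-proximal peaks were higher (3.2%, against 5.55% of all) and 3 lower (2.4%, against 3.15%). Of the distal peaks, 10 were higher (6.1%, against 6.63%) and 5 lower (3.05%, against 3.31%). By edgeR, the same 2 promoter-proximal peaks passed (1.6%, against 2.42% of all in that test), and 4 distal peaks did as well, 2 higher and 2 lower (2.44%, against 2.98%). At an unadjusted p under 0.05 edgeR gave 18 promoter-proximal peaks (14.4%, against 15.1%) and 34 distal peaks (20.7%, against 18.8%). Without tamoxifen replicate 4, DESeq2 called 1 promoter-proximal peak, which was lower (0.8%, against 2.35% of all in that fit), and 5 distal peaks, 3 higher and 2 lower (3.05%, against 4.18%). In that fit 16 promoter-proximal peaks had an unadjusted p under 0.05 (12.8%, against 10.1%).

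The median log2 change of the promoter-proximal peaks was -0.05 (all such peaks 0.00), with 75 of 125 below 0 (60%, against 48.8% of all). For the distal peaks it was 0.01 (all such peaks -0.00), with 80 of 164 below 0 (48.8%, against 50.6%). The 3 tamoxifen libraries lay above the 3 oil libraries at 14 promoter-proximal peaks (11.2%, against 9.84% of all) and below them at 9 (7.2%, against 9.06%). At distal peaks the groups did not overlap in 21 cases with tamoxifen higher (12.8%, against 12.4%) and in 19 with tamoxifen lower (11.6%, against 10.6%). The shares without overlap lay near those of the whole table, while more of the promoter-proximal peaks than of all lay below 0. For these peaks, each library's median log2 deviation from the peak means was 0.017, 0.003 and 0.043 after oil. After tamoxifen it was -0.046, 0.001 and 0.055, so that the groups overlapped. The plot of percentiles shows the distributions.

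**Figure D2:**
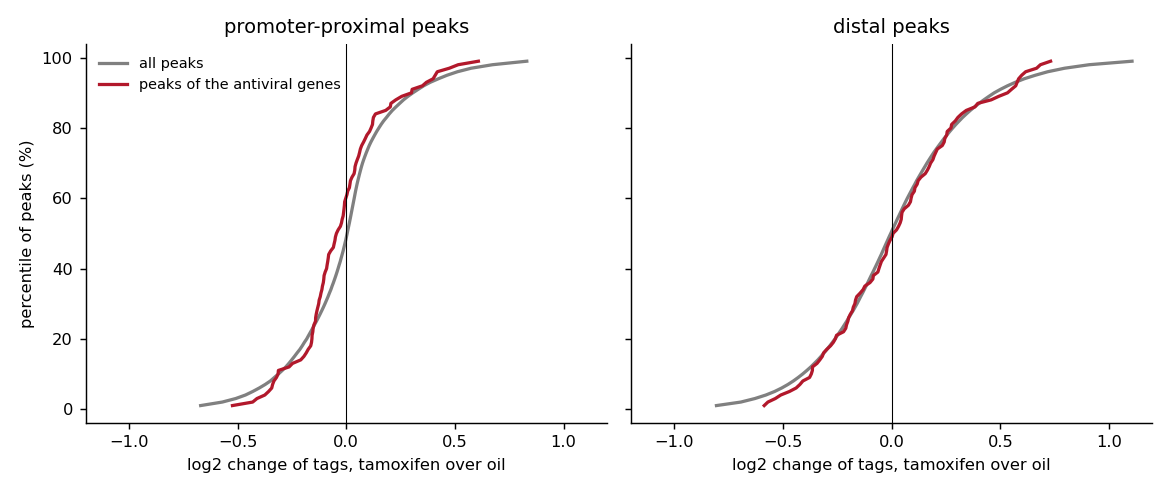
Percentiles (y axis, percent of peaks) of the log2 change of tags after tamoxifen over oil (x axis) for peaks of the antiviral genes (red) and all peaks (gray), promoter-proximal on the left and distal on the right. The red and gray curves run close together, with medians of -0.05 and 0.00 for promoter-proximal peaks and 0.01 and -0.00 for distal peaks.

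Ddx60, a helicase-like protein related to the RIG-I family of RNA sensors, had 1 peak, at chr8:61927967-61928541 over the start and the first exon. It held 81.6, 67.1 and 85.3 normalized tags in the oil libraries and 115, 131 and 119 in the tamoxifen libraries. The groups did not overlap, and tamoxifen replicate 4 lay with the other tamoxifen libraries here. The mean rose from 78.0 ± 9.63 (SD, n = 3) to 122 ± 8.29 (SD, n = 3), a log2 change of 0.64 (SE 0.18, DESeq2 adjusted p = 0.0399). The call was lost when any 1 library was left out (adjusted p = 0.0799 to 0.540), while the log2 change remained between 0.54 and 0.71. This is the peak with the 2 ISRE cores printed above.

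Mx2 encodes a dynamin-like GTPase of the family that traps viral nucleoproteins. Its promoter peak, at chr16:97535939-97536192 over the start site, held 60.4, 80.1 and 66.2 normalized tags after oil and 112, 114.5 and 101 after tamoxifen. Again the groups did not overlap. The mean rose from 68.9 ± 10.1 (SD, n = 3) to 109 ± 7.27 (SD, n = 3), a log2 change of 0.66 (SE 0.19, DESeq2 adjusted p = 0.0499). This call too was lost when any 1 library was left out (adjusted p = 0.0608 to 0.509, log2 change 0.58 to 0.78). It lay at the threshold, and both calls were lost with size factors from total tags in peaks (adjusted p = 0.0650 for Ddx60 and 0.0811 for Mx2).

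The other peaks of Mx2 had log2 changes of the same sign, whereas 48.8% of all promoter-proximal and 50.6% of all distal peaks lay below 0. The peak 884 bp upstream, which holds the ISRE core at -932, went from 77.3, 100 and 113 tags after oil to 121, 121 and 130 after tamoxifen (log2 change 0.35, SE 0.18, unadjusted p = 0.0503). The peak 460 bp upstream held 32.1, 31.9 and 32.2 against 45.3, 43.9 and 39.97 (log2 change 0.41, SE 0.27). In both of these the groups did not overlap, but neither passed the adjusted test. The peak 914 bp downstream had a log2 change of 0.52 (SE 0.28) with overlapping groups, since only tamoxifen replicate 4 was high there. Farther out, a peak 12836 bp upstream held 119, 103 and 134 tags after oil and 182, 186 and 149 after tamoxifen. Its log2 change was 0.54 (SE 0.19, DESeq2 adjusted p = 0.148), and it passed without tamoxifen replicate 4 (adjusted p = 0.0232) and by edgeR (adjusted p = 0.0383). Among the Mx2 peaks, those 13664 and 13364 bp upstream were called in the tamoxifen group only, so that their sign was favored by the calling. Summed over all 7 Mx2 peaks, the oil libraries held 363, 378 and 431 normalized tags and the tamoxifen libraries 563, 563 and 548.

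Mx1, the neighboring gene, had 9 peaks, all distal. The peaks 13840, 15925 and 18513 bp upstream lay in introns of a further gene, and the one 7990 bp upstream lay at its end. The log2 changes of the 9 peaks ranged from -0.47 to 0.60 with a median of 0.18, and 7 of 9 were above 0. Of all distal peaks, 50.6% lay below 0. The groups did not overlap at 4 of them, all with tamoxifen higher, against 12.4% of all distal peaks. Summed over the 9 peaks the groups did overlap, with 842, 774 and 789.5 normalized tags after oil and 829, 859 and 996 after tamoxifen. The peak 44814 bp downstream, in an intron of another gene, was the only one with an unadjusted p under 0.05 and held 39.6, 35.4 and 50.3 tags after oil and 55.6, 69.7 and 62.9 after tamoxifen (log2 change 0.57, SE 0.27, DESeq2 adjusted p = 0.420). The peak 3844 bp upstream, the one nearest to the start site, held 96.4, 88.6 and 82.3 against 96.4, 138 and 117 (log2 change 0.40, SE 0.21). Tamoxifen replicate 1 was level with oil replicate 1 there, and the other tamoxifen libraries were higher. No Mx1 peak passed the adjusted test. The plot of Mx peaks by distance gives all 16 values.

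**Figure D3:**
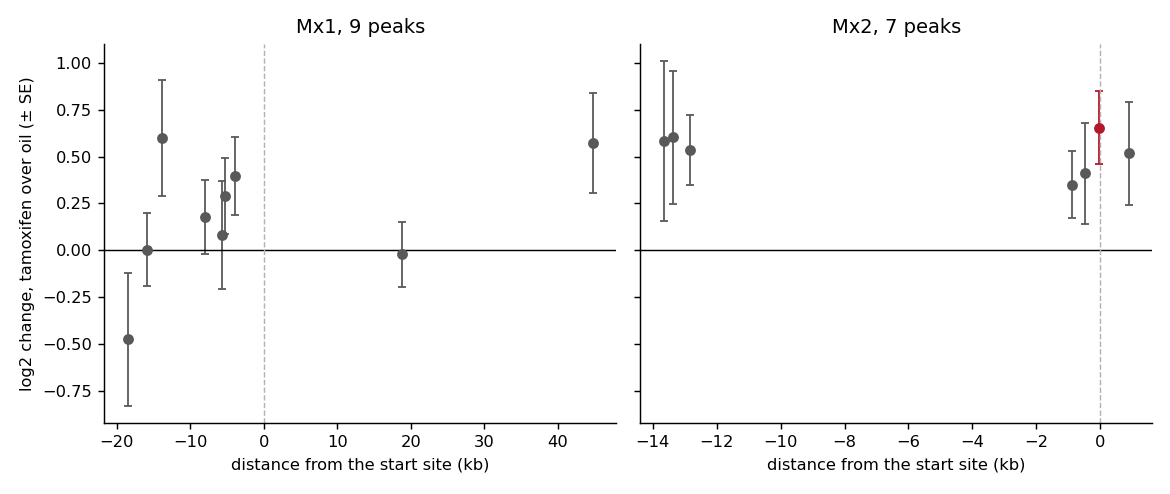
Log2 change of tags after tamoxifen over oil (y axis, bars SE) for each peak of Mx1 (left, 9 peaks) and Mx2 (right, 7 peaks) against its distance from the gene's start site in kb (x axis, negative upstream). All 7 Mx2 points lie above 0, from 0.35 to 0.66, and the red point is the promoter peak that passed the adjusted test. Among them, the peaks 13664 and 13364 bp upstream were called in the tamoxifen group only.

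The OAS family includes enzymes that make 2′-5′ oligoadenylates, which switch on the RNA-cutting enzyme RNase L. None of its 25 promoter-proximal and 16 distal peaks passed the test (smallest adjusted p = 0.219). The log2 change was below 0 at 19 of the 25 (median -0.05) and at 8 of the 16, against 48.8% and 50.6% of all such peaks. Whether neighboring peaks change independently was not tested. The Oas1g promoter peak held 172, 211 and 213 normalized tags after oil and 131, 145 and 174 after tamoxifen. Tamoxifen replicate 4 overlapped with oil replicate 1 there, and the other libraries were apart. The log2 change was -0.41 (SE 0.15, unadjusted p = 0.00671, DESeq2 adjusted p = 0.219), the lowest of the 33 promoter peaks. The Oas1a promoter peak, whose upstream stretch is printed above beside that of Oas1g, held 210, 208 and 215.5 after oil and 176, 202 and 237 after tamoxifen. Its oil values were tight and its tamoxifen values spread to both sides (log2 change -0.05, SE 0.13). These paralogs are near-identical in places, so that reads could be placed at the wrong copy, and their values are uncertain. The plot of tags by library sets these peaks beside those of Ddx60, Mx2 and Ifit2.

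**Figure D4:**
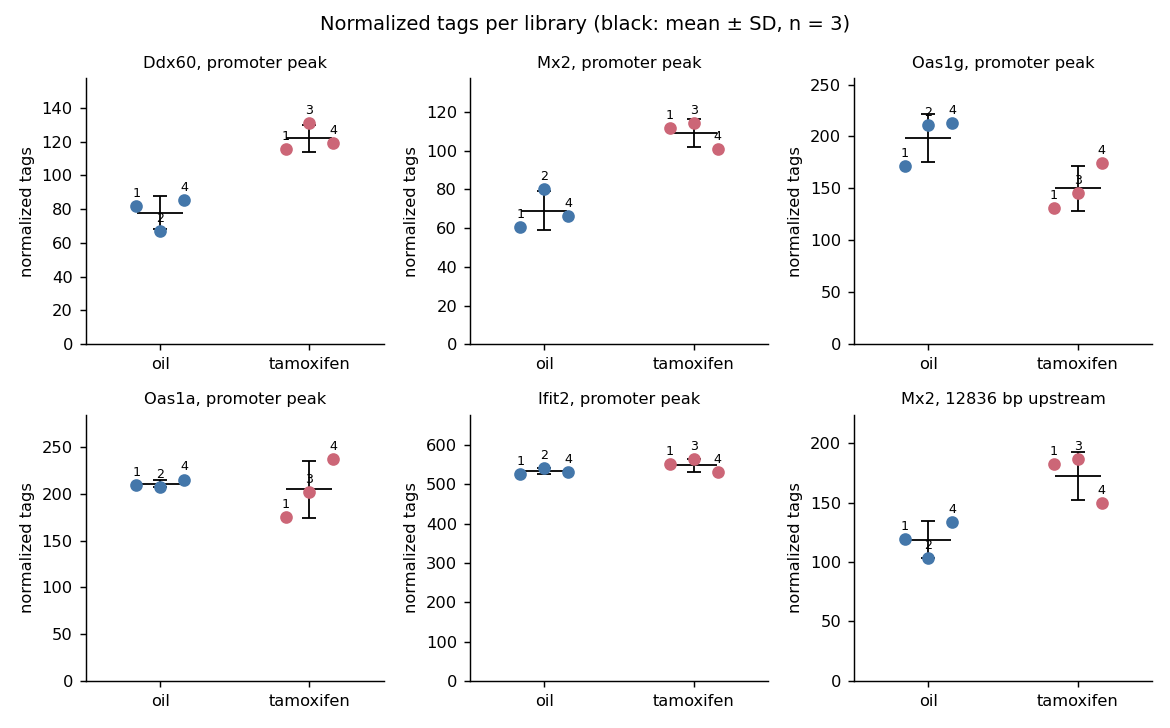
Normalized tags (y axis, from 0) in each oil (blue) and tamoxifen (red) library, numbered by replicate, with the mean and SD in black, at 5 promoter peaks and the Mx2 peak 12836 bp upstream. Groups are apart at Ddx60, at both Mx2 peaks and nowhere else in this plot, and tamoxifen replicate 4 is the highest tamoxifen value at Oas1g and Oas1a.

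The other 5 Oas1g peaks also had log2 changes below 0, as had 48.8% of all promoter-proximal and 50.6% of all distal peaks. The Oas1g peak 654 bp upstream held 59.9, 77.7 and 79.4 against 47.7, 41.1 and 58.5 (log2 change -0.55, SE 0.23, DESeq2 adjusted p = 0.356), with groups that did not overlap. The peak 1008 bp upstream, chosen after its values were seen, held 181, 172 and 185 against 129, 112 and 190, so that only tamoxifen replicates 1 and 3 were low. It had a log2 change of -0.31 (SE 0.17), and fell only without tamoxifen replicate 4 (adjusted p = 0.0417). The remaining promoter peaks of the family had log2 changes of -0.18 at Oas2, -0.08 at Oas3, 0.09 at Oasl1 and -0.00 at Oasl2, each with an SE of 0.12 to 0.17. A further Oas2 peak in the first exon had a log2 change of -0.36 (SE 0.20). At a distance of 20890 bp, an upstream peak of Oasl2 had a log2 change of 0.47, with tamoxifen replicates 1 and 3 high and replicate 4 level with oil, and passed without replicate 4 (log2 change 0.66, adjusted p = 0.0201). It was chosen after its values were seen.

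IFIT proteins bind viral RNA ends. The Ifit2 promoter peak was among the more open ones and held 527, 541 and 531 tags after oil and 552, 563 and 531 after tamoxifen (log2 change 0.04, SE 0.07, DESeq2 adjusted p = 0.978). The means were 533 ± 7.31 and 549 ± 16.4 (SD, n = 3 each), and the groups overlapped. A peak in the first intron of Ifit2, 11599 bp downstream, held 155, 150 and 140 against 108, 116 and 119. It was lower in each tamoxifen library but did not pass the adjusted test (log2 change -0.37, SE 0.18, DESeq2 adjusted p = 0.463). Ifit1 and Ifit3 had 8 and 1 distal peaks, none with an unadjusted p under 0.05. The start of Ifit1 was nonetheless covered by a peak, at chr19:34640646-34640944, which the annotation names for the neighboring Ifit1bl2. This peak, noticed after the values were seen and not counted among the 289, had a log2 change of 0.14 (SE 0.20, DESeq2 adjusted p = 0.970).

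Of the 7 genes without a promoter-proximal peak of their own, 6 had a window in the RefSeq promoter set. In it, Ifit1, Ifit3, Ifit3b and Rsad2 held an ISRE core. These cores are shown because they mark promoters where the table named no peak for the gene. Ifit3 and Ifit3b had the same 30 bases around each of their 2 cores, so reads could be placed at either copy.
Ifit1, chr19:34640775-34640804, plus strand: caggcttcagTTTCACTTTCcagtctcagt
Ifit1, chr19:34640794-34640823, plus strand: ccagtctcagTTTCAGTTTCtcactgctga
Ifit3, chr19:34583363-34583392, plus strand: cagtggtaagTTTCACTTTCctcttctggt
Ifit3b, chr19:34607759-34607788, plus strand: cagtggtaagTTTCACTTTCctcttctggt
Rsad2, chr12:26456553-26456582, minus strand: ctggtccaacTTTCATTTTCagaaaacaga

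Both Ifit1 cores fall inside the peak named for Ifit1bl2. The peak closest to the Ifit3 start lay 5609 bp away and the one closest to the Rsad2 start 12217 bp away. A missing peak says only that none was called there in either group.

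The enzymes that act on nucleotides and RNA had 13 promoter-proximal and 11 distal peaks, none of which passed the test (smallest adjusted p = 0.220). Cmpk2, a mitochondrial nucleotide kinase that lies next to Rsad2, had the least open promoter peak per length. It held 33.2, 20.8 and 29.5 tags after oil and 41.9, 33.9 and 38.1 after tamoxifen, and the groups did not overlap by a small margin (log2 change 0.46, SE 0.29, DESeq2 adjusted p = 0.754). This weak peak was called in the tamoxifen group only, so that a higher value there was favored by the calling. A Cmpk2 peak 63928 bp downstream held 56.3, 57.6 and 69.8 against 95.9, 127 and 68.4. Tamoxifen replicates 1 and 3 were high there and replicate 4 was level with oil (log2 change 0.67, SE 0.25, DESeq2 adjusted p = 0.220), and without replicate 4 the peak passed (log2 change 0.87, adjusted p = 0.0149). Rsad2 encodes viperin, an enzyme that makes a chain-ending nucleotide, and its 1 distal peak had a log2 change of 0.53 (SE 0.30). Eif2ak2, the RNA-activated kinase PKR, had a log2 change of -0.13 (SE 0.11) at its promoter, and Samhd1, which breaks down deoxynucleotides, of 0.05 (SE 0.08). A Samhd1 peak 1189 bp downstream held 62.1, 73.4 and 69.4 against 80.4, 102 and 89.9, higher in each tamoxifen library (log2 change 0.40, SE 0.20, DESeq2 adjusted p = 0.548).

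Membrane proteins made up the largest group of peaks, 22 promoter-proximal and 42 distal, and none passed the test (smallest adjusted p = 0.108). Ly6e, a surface protein that limits coronavirus entry, had 30 peaks with log2 changes from -0.59 to 0.68, 15 of them above 0. Its peak 23984 bp upstream held 111, 124.5 and 109 tags after oil and 146, 205 and 163 after tamoxifen, higher in each tamoxifen library (log2 change 0.58, SE 0.19, DESeq2 adjusted p = 0.108). The peak 4378 bp upstream went the other way, with 267, 246 and 254 against 167, 185 and 217 (log2 change -0.43, SE 0.16, DESeq2 adjusted p = 0.208). Another, 13332 bp downstream, held 335, 300.1 and 280 against 232, 243 and 252 (log2 change -0.33, SE 0.15). The groups did not overlap at any of these 3, so that single regions of Ly6e had values on either side of 0. The promoter peak of Ly6e held 158, 149 and 151 against 132.5, 90.6 and 143 (log2 change -0.31, SE 0.17, DESeq2 adjusted p = 0.626), with tamoxifen replicate 3 the lowest. By edgeR the peaks at 23984 and 4378 bp passed (adjusted p = 0.0314 and 0.0341). The first also passed in 1 fit of all peaks (adjusted p = 0.0483), and the second without tamoxifen replicate 4 (log2 change -0.54, adjusted p = 0.0211).

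Ifitm proteins sit in endosomal and surface membranes and hinder fusion of viruses. Their promoter peaks had log2 changes of 0.20 at Ifitm1 (SE 0.29), 0.13 at Ifitm2 (SE 0.15) and -0.18 at Ifitm3 (SE 0.12), the last for a peak 1547 bp downstream at the gene's end. An Ifitm2 peak 976 bp downstream held 63.1, 65.2 and 74.4 against 95.0, 111 and 84.7, higher in each tamoxifen library (log2 change 0.51, SE 0.20, DESeq2 adjusted p = 0.273). The Ifitm genes are close relatives, and reads could be placed at the wrong one. Bst2 encodes tetherin, which holds budding virus at the cell surface, and had a log2 change of -0.07 (SE 0.07) at its promoter. Rtp4, a receptor-trafficking protein, had one of 0.06 (SE 0.20) in spite of its 4 ISRE cores, with a wide spread of 75.1, 122 and 81.2 tags after oil against 87.2, 96.2 and 108 after tamoxifen.

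Parp12 and Parp14 attach ADP-ribose to proteins, and Dtx3l is a ubiquitin ligase that pairs with the related Parp9. None of their 18 promoter-proximal and 34 distal peaks passed (smallest adjusted p = 0.193). The promoter log2 changes were -0.16 at Parp9 (SE 0.33), -0.12 at Parp12 (SE 0.10), -0.09 at Parp14 (SE 0.15) and 0.04 at Dtx3l (SE 0.10). The Parp9 value is for a peak 421 bp from the start site. Parp14 had 31 peaks, the highest number, with a median of -0.11 and 6 above 0. Of all promoter-proximal and distal peaks, 48.8% and 50.6% lay below 0. Whether neighboring peaks of 1 gene change independently was not tested. Its peak 17720 bp upstream held 240.1, 218.5 and 241 tags after oil and 180, 145 and 185.5 after tamoxifen (log2 change -0.45, SE 0.17, DESeq2 adjusted p = 0.193), and passed by edgeR (adjusted p = 0.0338). In the first intron, the Parp14 peak 458 bp downstream held 165.5, 177 and 179 against 134, 134 and 152 (log2 change -0.31, SE 0.15, DESeq2 adjusted p = 0.490). At both of these the groups did not overlap. The peak 3485 bp downstream held 70.7, 69.9 and 52.5 against 31.7, 29.6 and 56.5, low in tamoxifen replicates 1 and 3 only. Its log2 change was -0.70 (SE 0.29, DESeq2 adjusted p = 0.313), and without tamoxifen replicate 4 it was -1.08 and passed (adjusted p = 0.0220).

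Among the other helicase-like and SAMD9 genes, the promoter log2 changes were 0.13 at Helz2 (SE 0.09), 0.07 at Samd9l (SE 0.13) and -0.01 at Znfx1 (SE 0.07). Helz2 held 372, 395 and 365 tags after oil and 399, 423 and 412.5 after tamoxifen, without overlap but by a narrow margin. The TRIM and nuclear genes comprise the antibody receptor Trim21, Trim30a, the nuclear body protein Sp100 and Xaf1, and none of their 13 promoter-proximal and 5 distal peaks passed (smallest adjusted p = 0.175). Their promoter log2 changes were 0.00, 0.11, -0.04 and -0.10, each with an SE of 0.08 to 0.16. An intron peak of Sp100, 14476 bp downstream, held 46.8, 30.0 and 45.8 against 57.6, 73.6 and 75.3, higher in each tamoxifen library (log2 change 0.75, SE 0.27, DESeq2 adjusted p = 0.175). Lgals9 and Lgals3bp together had 10 promoter-proximal and 22 distal peaks, none of which passed (smallest adjusted p = 0.279). Their promoter log2 changes were -0.01 (SE 0.12) and -0.09 (SE 0.08). An intron peak of Lgals9, 17328 bp downstream, held 119, 122.5 and 145 against 179, 195 and 157 (log2 change 0.45, SE 0.18, DESeq2 adjusted p = 0.279). Ifi27 and Ifi35, further inducible genes, had promoter log2 changes of -0.01 (SE 0.07) and -0.10 (SE 0.10), and none of their 9 promoter-proximal and 3 distal peaks passed (smallest adjusted p = 0.570).

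Per length, the promoter peaks differed far more between genes than between groups. Tags per 100 bp after oil had a median of 99.6 over the 33 promoter peaks. The highest were Znfx1 at 291 ± 14.8, Bst2 at 277.5 ± 17.5, Ifit2 at 259 ± 3.55 and Ifi27 at 257 ± 7.58 (SD, n = 3). Znfx1 and Bst2 differed by less than their SDs, and so did Ifit2 and Ifi27. The lowest were Cmpk2 at 8.43 ± 1.94, Parp9 at 11.2 ± 0.60, Ifitm1 at 13.5 ± 3.22 and Ddx60 at 13.6 ± 1.68, then Mx2 at 27.1 ± 3.98 and Rtp4 at 28.2 ± 7.68. The Parp9 peak lay 421 bp from the start site, so its value need not be that of the start itself. Ifitm1 and Ddx60 did not differ beyond their SDs, nor did Mx2 and Rtp4. Both peaks that passed the test thus belonged to the less open promoters, with means after tamoxifen of 21.2 (Ddx60) and 43.0 (Mx2) per 100 bp. The 15 promoter peaks with an ISRE core had a median log2 change of -0.01 (range -0.41 to 0.64), and the 18 without had one of -0.01 (range -0.31 to 0.66). For this split, cores were counted within the called peak, not in a 300 bp window. Bst2 and Ifitm3 counted as without a core, although their RefSeq windows held one. The reverse was the case for Dtx3l and Parp12. The plot of promoter changes gives all 33 values.

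**Figure D5:**
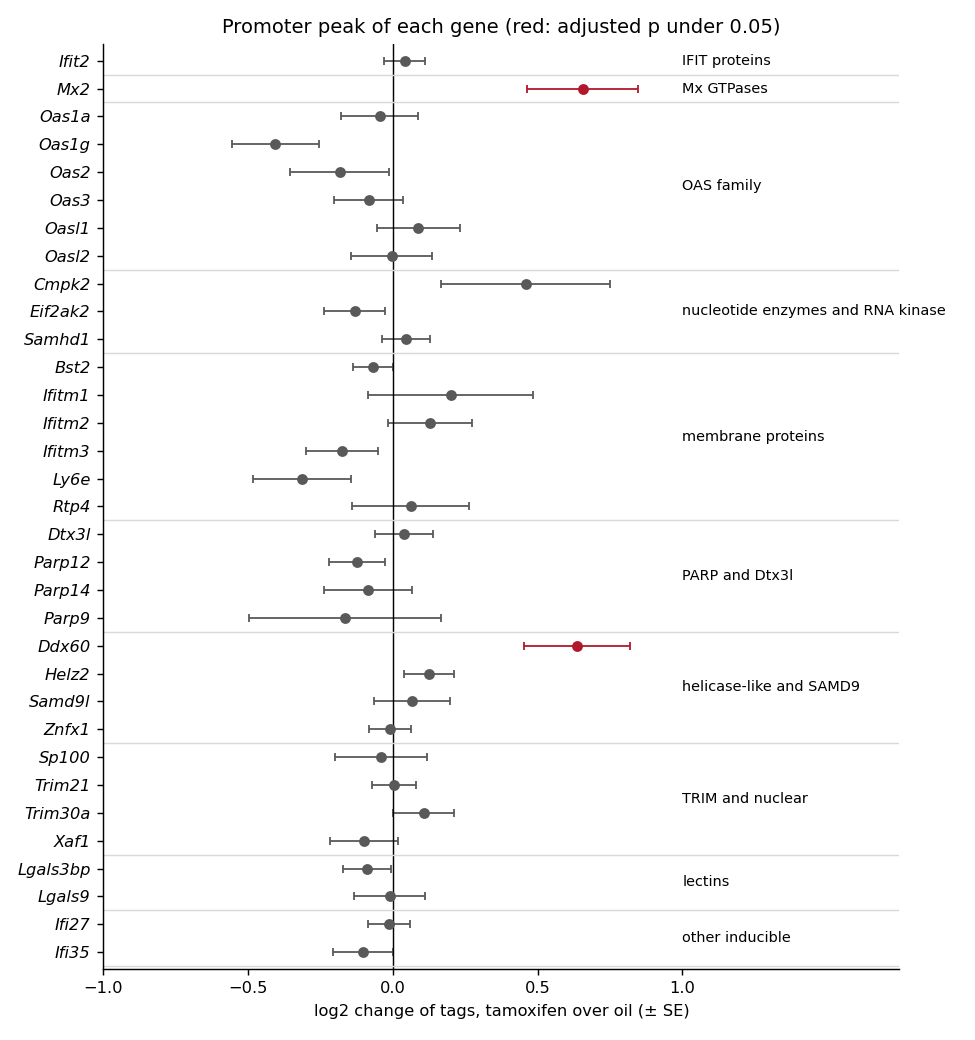
Log2 change of tags after tamoxifen over oil (x axis, bars SE) at the promoter peak of each of 33 genes (y axis), grouped by role. The red points of Mx2 (0.66) and Ddx60 (0.64) passed the adjusted test, and the lowest value is that of Oas1g (-0.41).

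Further genes of interferon signaling, 12 in all and among them Usp18, Isg15 and Socs1, were counted in the same way. Of their 179 distal peaks, 5 rose and 0 fell (DESeq2), and of their 58 promoter-proximal peaks 1 rose and 0 fell, against 1.41% and 1.34% called in either direction among all peaks. The peaks that rose belonged to the receptor chain gene Ifnar2 (2), the interferon regulatory factor genes Irf7 (2) and Irf1 (1), and the receptor-bound kinase gene Jak1 (1). The Irf7 peak 2271 bp downstream held 241, 240 and 267 tags after oil and 338, 410 and 316 after tamoxifen (log2 change 0.50, SE 0.11, DESeq2 adjusted p = 0.00123). The Ifnar2 peak 6002 bp upstream held 150, 140 and 130 against 251, 325 and 191 (log2 change 0.87, SE 0.19, DESeq2 adjusted p = 0.00212). At both, each tamoxifen library lay above each oil library, with tamoxifen replicate 4 the lowest of its group. The promoter peaks that did not pass included those of Stat2 (log2 change 0.02, SE 0.06), Irf9 (0.02, SE 0.07) and Isg15 (0.20, SE 0.16). The count of 6 was 12 without tamoxifen replicate 4, a fit that called 3.62% of all peaks, and 0 to 3 when any 1 of the other libraries was left out, in fits that called 0.355% to 0.55%.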

How the data were processed

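ATAC-seq libraries from 3 oil and 3 tamoxifen samples were used, grouped by the labels. The authors mapped reads to mm10 with Bowtie2 and used HOMER to call peaks, merge them and count tags (versions not given in the sources used here). The deposited estimated counts are tags per peak in steps of 0.5, not normalized, and capped at 3 tags per position. The cap limits the highest peaks, and peaks were called on the libraries compared. Of the peaks of the antiviral genes, 101 promoter-proximal and 111 distal ones were called in both groups. In the oil group only, 14 and 30 were called, and in the tamoxifen group only 10 and 23. For these, the calling favored a higher value in the group where they were called. After rounding to whole numbers, tags were compared by DESeq2 1.42.0 under R 4.3.3 with default settings, with 53478 promoter-proximal and 122399 distal peaks in separate fits, a Wald test and Benjamini-Hochberg adjustment over all peaks of a class. A call was an adjusted p under 0.05. The study's added fold change over 2 was an alternative. Normalized tags are tags divided by the class's size factors. Alternatives used edgeR 4.0.16, other size factors, filters and limits, a replicate block and fits without 1 library. The fits were tested on simulated data. Replicates 1 and 4 occur in both groups, and their deviations correlated at -0.0443 and 0.0506, so that the numbers were not taken to pair the libraries. Named peaks are the nearest promoter-proximal peak of each gene, peaks past the adjusted p, and the 5 with the smallest p in each direction and class, with exceptions stated. Genes, lists, roles and tests were chosen with earlier results of these data known. Coordinates are mm10, 1-based.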

Additional observations from a re-analysis of the deposited data

How the results depend on the processing

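The 2 promoter-proximal calls became 1 with a mean of at least 20 tags per peak, and 0 with a fold change over 2, with size factors from total tags in peaks, in 1 fit of all peaks and with the replicate block on numbers 1 and 4. Without 1 library the count ran from 0 to 1, the 1 being a fall at Oas1g without tamoxifen replicate 4. Promoter-proximal peaks at an unadjusted p under 0.05, 7 in the report, were 18 by edgeR, 0 with the replicate block and 4 to 16 without 1 library. Distal calls, 0 in the report, were 4 by edgeR, 1 in 1 fit of all peaks and 0 to 5 without 1 library. Distal peaks at an unadjusted p under 0.05 went from 15 to 34 by edgeR, 0 with the replicate block and 5 to 19 without 1 library. The 6 calls of the signaling genes became 0 with the replicate block and 0 to 12 without 1 library. The cause was not tested, but the block rests on 2 libraries per group. Both medians moved by less than the spread between libraries under each alternative. Over all settings, single named peaks kept direction and side of the threshold in 586 values, lost a call in 19, gained one in 9 and changed sign in 23, the last only at promoter peaks that were not called. With the replicate block, Oasl2 was 0.00985, Samhd1 -0.0134 and Trim21 -0.00575. Trim21 was -0.0271 with total tags and -0.0143 in 1 fit of all peaks. Without 1 library, the log2 change ran from -0.0146 to 0.108 at Dtx3l, -0.0371 to 0.0147 at Ifi27, -0.0502 to 0.23 at Ifitm2, -0.0376 to 0.0322 at Lgals9, -0.166 to 0.0581 at Oas1a, -0.0554 to 0.0284 at Oasl2, -0.0646 to 0.305 at Rtp4, -0.103 to 0.0269 at Sp100, -0.0175 to 0.021 at Trim21 and -0.0563 to 0.0371 at Znfx1. Depth, 45 to 57 tags at the median peak, limits what can be seen at weak peaks.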
